A study of Mus musculus with 6 samples.

Results

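The genes described here encode the proteins of the cytosolic ribosome, and they were measured in blood stem and progenitor cells of control and Med12 knockout mice. Members were the probe sets given exactly 1 gene symbol, where that symbol had the form of a ribosomal protein name (Rps or Rpl with a number, Rplp0 to Rplp2, or Rpsa, with suffixes for paralogs). A gene with several such probe sets was read by the one of highest mean log2(signal + 16) over all 6 arrays. This gave 48 of the 18193 genes measured, 26 of the large and 22 of the small subunit, paralogs included. The choice used no difference between the groups. A further 29 symbols of this form appeared only on probe sets that also carry the symbol of a pseudogene or another gene, so those genes are not named with values.

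Haematopoietic stem and progenitor cells (HSPCs) had been sorted from bone marrow by flow cytometry as cells without lineage markers that carry c-Kit and Sca1. The group HSPC_control held 3 arrays and the group HSPC_Med12 KO held 3 arrays, all of the B6/129 background, taken 4 days after an injection of pI:pC, an RNA analogue that sets off an interferon response. The knockouts were Med12Flox;MxCre mice, in which interferon switches on the Mx-driven Cre recombinase in blood cells and in other tissues as well. The genotype of the controls and the age of the mice are not given in the sources used here. Med12 is a subunit of Mediator, through which transcription factors reach RNA polymerase II.

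A ribosome joins a small subunit, which reads the messenger RNA, with a large subunit, which forms the peptide bonds and lets the new chain out through a tunnel. Most of its proteins are present in 1 copy per ribosome, and their messenger RNAs are among the most abundant in growing cells. These messages begin with a terminal oligopyrimidine (TOP) tract, a stretch of C and U at the very start through which the kinase mTOR and the protein Larp1 govern their translation. In blood, loss of 1 copy of genes such as RPS19 causes Diamond-Blackfan anaemia, a failure of red cell production, and RPS14 is a gene of the 5q- syndrome.

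Across the arrays, the median signal of all probe sets was 26.7 to 26.9 in controls and 16.5 to 21.3 in knockouts. Med12 itself had signals of 278.6, 837.4 and 441.6 in controls and 89.1, 100.4 and 86.4 in knockouts. Whether its probe set lies in the floxed region cannot be told from the sources used here, and only then would it check the labels. Of the sort genes, Kit was present on all 6 arrays (805.2 to 1425 in controls, 514.8 to 617.5 in knockouts), and the gene of Sca1 was not measured by a probe set of its own. Of 6 stem and progenitor surface genes, Kit included, 5 were lower and 1, Slamf1, was higher, without a call. Groups were apart in 4, beside 23.4% of all genes. Their summed signal was 5386 to 8159 in controls and 2317 to 2970 in knockouts. Flt3 had signals of 657.1, 1028 and 1088 in controls and 125.9, 42.5 and 13.8 in knockouts. The levels of cell type marker genes also differed between the groups. Of 10 measured erythroid marker genes 5 rose, and the summed signal of the 10 was 1846.5 to 2456 in controls and 5988 to 9946 in knockouts. By value 9 of them were higher. Slc4a1 was lower without a call, at 23.2, 185.8 and 69.3 in controls and 11.8, 13.9 and 13.2 in knockouts. Of 10 granulocyte-monocyte markers 6 fell (8441 to 15029 against 832.2 to 1434), and of 6 early lymphoid markers 5 fell (2706 to 3177 against 72.8 to 124.2). The globin gene Hba-a1 was under 16 on every array. The 5 B cell and 5 T and NK cell markers gave no call, with summed signals of 328.6 to 691.1 against 110.0 to 356.8 and of 996.8 to 1163 against 1051 to 1385. The B cell gene Ms4a1 was under 16 on every array. The part of these shifts in the values below was not tested. Fewer cells of a type and less RNA per cell cannot be told apart in these bulk samples.

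No ribosomal protein gene passed the test between knockouts and controls. The abundant members read slightly lower in knockouts, almost all by a similar amount, and that amount was about the size of the spread between arrays of a group. Of 48 members 0 rose and 0 fell in limma's test (Benjamini-Hochberg adjusted p under 0.05), where 0.989% of all genes were called, and the lowest adjusted p among the members was 0.229. At an unadjusted p under 0.05 there were 3 members, or fewer in proportion than the 18.1% of all genes. The median log2 difference (knockout minus control) was -0.19 over the members and -0.05 over all genes. Of the 48 members 37 were lower and 11 higher, against 57.8% lower over all genes. After each array was centred on its own median, 9 were lower and 39 higher, and after quantile normalization 23 were lower and 25 higher. After loess normalization 37 were lower and 11 higher. The median over all genes was 0.22, 0.022 and 0.0050 in these settings. The direction thus depended on the scaling, and none can be given for the family. Groups did not overlap in 7 members, 5 lower (Rpl38, Rpl39, Rpl3l, Rps20 and Rps24) and 2 higher (Rpl7l1 and Rps4l) in knockouts, beside 23.4% of all genes (13.5% lower and 9.85% higher).

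**Figure D1:**
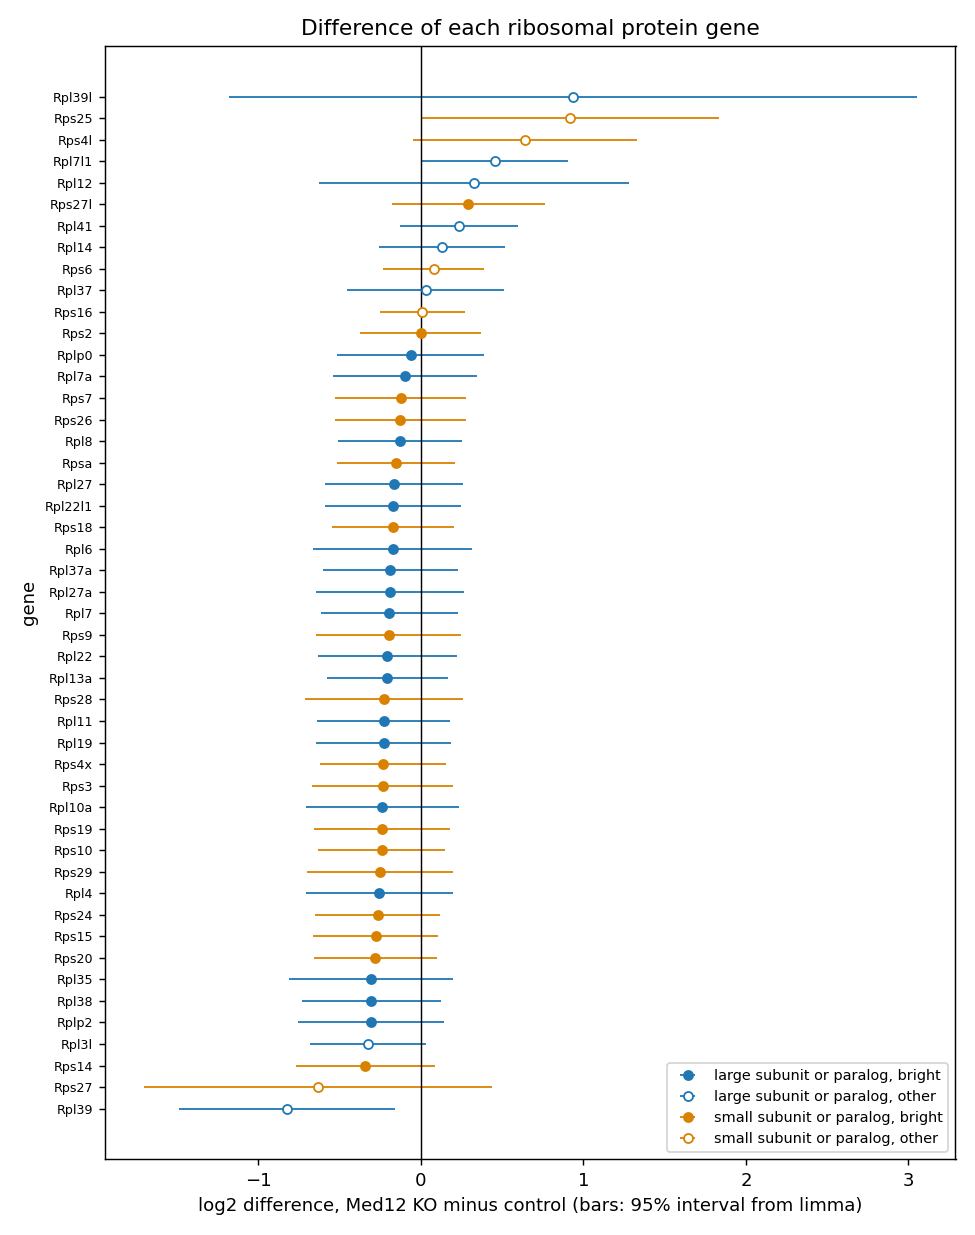
Log2 difference (Med12 KO minus control, horizontal axis) of each of the 48 genes, sorted by value, with 95% intervals from limma (blue, large subunit; orange, small subunit; paralogs included). Filled points are the 35 bright members, which lie between -0.34 and 0.29, and open points are the other 13, which spread from -0.83 to 0.94.

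The members were split by brightness. In 35 genes, called bright, the mean log2(signal + 16) was 11.4 or more, above 99.1% of all probe sets. In the other 13, called dim, it was 10.7 or less, although the brightest of these, Rpl41, still lay above 97.8% of all probe sets. A limit of 11, set after the values were seen, separates the 35 from the 13. Of the 13, 10 were higher and 3 lower as deposited (median 0.13), and 0 passed. The bright members had a median log2 difference of -0.21, and 34 of 35 were lower in knockouts as deposited. After median centring 6 of the 35 were lower and 29 higher (median 0.067), and after quantile normalization 20 were lower (median -0.014). After loess normalization 34 were lower (median -0.25). None of them passed, and 0 had an unadjusted p under 0.05. Their 95% intervals reached down to -0.81 and, leaving out Rps27l, up to 0.39, so differences of that size in either direction are not excluded by these arrays. Both subunits gave like values: the 18 bright large subunit genes had a median of -0.20 and the 17 bright small subunit genes a median of -0.23. The 340 other genes above the same limit had a median of -0.03, with 185 of them lower.

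**Figure D2:**
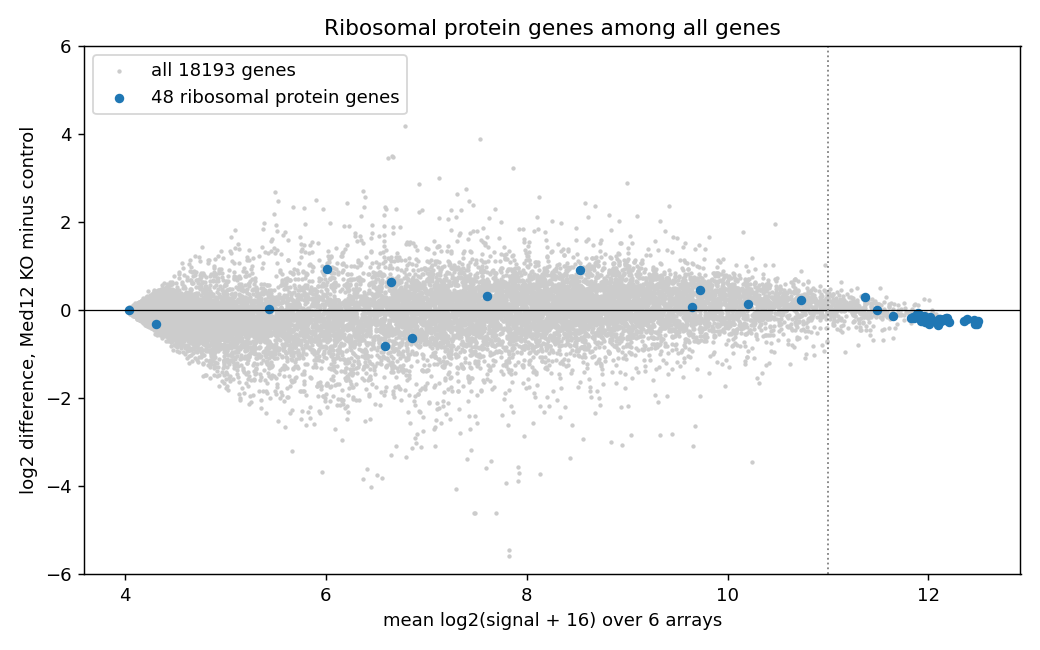
Mean log2(signal + 16) over the 6 arrays (horizontal axis) against the log2 difference (Med12 KO minus control, vertical axis) for all 18193 genes (grey) and the 48 ribosomal protein genes (blue). The 35 bright members form a tight group right of the dotted line at 11, between -0.34 and 0.29.

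The bright members moved from array to array as a block. Their median signal was 4156, 4418 and 5220 on control replicates 1, 2 and 3 and 3388, 4352 and 4066 on knockout replicates 1, 2 and 3. Control replicate 3 was the highest array for 33 of the 35 genes, and knockout replicate 1 was the lowest for 34. Knockout replicate 2 lay above the middle control value in 22 genes, so the groups overlapped in most members. The median spread within groups was 0.20 (SD of log2 signal), about the size of the difference between the groups. When each gene was set against the median of the bright members on the same array, that spread shrank to 0.066. The 99th percentile of array signal, members included, ranged from 2307 on knockout replicate 1 to 2898 on control replicate 3. The 90th percentile ran the other way, from 520.6 on control replicate 3 to 553.9 on knockout replicate 1. Outside the family, Eif3i and Cnbp had the same highest and lowest arrays, while Eef2k and Cct2 did not. Whether the block is particular to ribosomal protein genes was not tested. Leaving out control replicate 3 and knockout replicate 1 together, an alternative added after seeing the data, moved the bright median from -0.21 to 0.013, with 16 of 35 genes lower. Each alone moved it to -0.093 and -0.10, which is more than 1.5 times closer to 0. Without control replicate 1 the median of all members was -0.28, and without knockout replicate 2 it was -0.29.

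**Figure D3:**
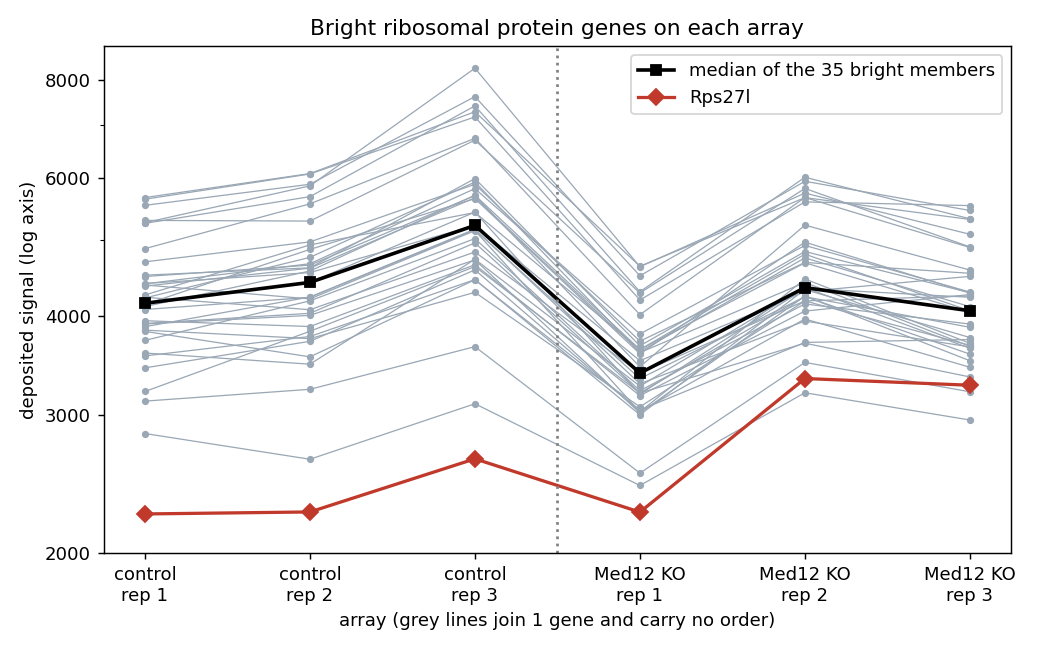
Deposited signal (vertical log axis) of the 35 bright members on each of the 6 arrays. Grey lines join the values of 1 gene, the black line is their median (4156, 4418 and 5220 in controls, 3388, 4352 and 4066 in knockouts), and the red line is Rps27l, which is nearer to the others in knockouts.

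The sequences at the start sites of members are shown for the TOP tract described above. RefSeq (GRCm38.p6) gave 50 start sites for 42 of the 48 members. Each line below holds 30 bases read along the gene's strand, 10 before the start and the first 20 of the transcript, and capitals mark the longest run of C and T. The first 6 genes, chosen after their runs were seen, have long runs across the start. Rps2 and the paralogs Rps27l and Rpl7l1, whose values are described further on, have shorter ones and were picked with values and runs known. Rpl7a, described with Rps2 further on, has a long run. Short runs also occur in bright members that were lower as deposited, such as Rps3 (2 bases) and Rps15 (3 bases). A second start of Rps27l, not shown, has a run of 4 bases.
Rpl27a (chr7:109519185-109519214, plus strand): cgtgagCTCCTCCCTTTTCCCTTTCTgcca
Rpl35 (chr2:39005112-39005141, minus strand): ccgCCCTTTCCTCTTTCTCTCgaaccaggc
Rpl7a (chr2:26910797-26910826, plus strand): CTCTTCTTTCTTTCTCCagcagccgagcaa
Rps10 (chr17:27635225-27635254, minus strand): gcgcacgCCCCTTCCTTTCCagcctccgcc
Rps18 (chr17:33955646-33955675, minus strand): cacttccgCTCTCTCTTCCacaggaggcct
Rplp2 (chr7:141447641-141447670, plus strand): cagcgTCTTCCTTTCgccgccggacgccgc
Rps2 (chr17:24720053-24720082, plus strand): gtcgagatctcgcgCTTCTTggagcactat
Rps27l (chr9:66946076-66946105, plus strand): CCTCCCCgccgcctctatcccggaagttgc
Rpl7l1 (chr17:46782637-46782666, minus strand): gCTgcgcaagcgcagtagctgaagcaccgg

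A run of 8 or more C and T lay in this window at 17 of the 50 member starts (34.0%) and at 11.2% of all 32851 starts in the RefSeq table. The longest run was 20 bases, in Rpl27a. Annotated starts may lie some bases from the start used in these cells. Among the bright members with a start sequence, the 13 with such a run had a median log2 difference of -0.21 and the 17 without it also -0.21. Whether such a run bears on the array signal was not tested. In the 300 bases around each start (250 before and 50 after), read on both strands, CCGGAAG, the core bound by ETS factors, was found at 40.0% of member starts and 8.86% of all starts. AAGATGG, part of the YY1 motif, was found at 8 of the 50 member starts and 6.34% of all starts, and the TATA box letters TATAAA at 6 of 50 and 13.6%. Over the 21262 starts of protein-coding genes the shares were 11.6% for CCGGAAG, 6.24% for AAGATGG and 12.6% for TATAAA. Runs of 8 or more C and T lay at 11.2% of these starts. These matches describe letters only.

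The stalk of the large subunit, which recruits the factors of elongation, was read by 3 members. Rplp0, its anchor on the ribosome, had signals of 3593, 3478 and 4728 in controls and 3261, 4352 and 3643 in knockouts. Only knockout replicate 1 lay outside the control range, below it, and the log2 difference of -0.06 (SE 0.18) turned to 0.21 after median centring, to 0.093 after quantile normalization, and to 0.075 without control replicate 3. Rplp2, one of the acidic proteins that form the arm of the stalk, had signals of 4385, 4210 and 5141 in controls and 3025, 4463 and 3697 in knockouts, a log2 difference of -0.31 (SE 0.18; limma's adjusted p = 0.492). Knockout replicate 2 lay inside the control range. Rpl12, at the base of the stalk, was read by a dimmer probe set with signals of 214.7, 214.3 and 83.6 in controls and 146.4, 240 and 234.6 in knockouts. Both groups spanned a wide and shared range. Its log2 difference of 0.33 had an interval of -0.63 to 1.28 and turned to -0.078 without control replicate 3.

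Proteins that line or rim the exit tunnel were read by Rpl4, Rpl19, Rpl22, Rpl35 and Rpl39, and all 5 were lower as deposited, or 2 after median centring. Rpl39, a small protein inside the tunnel, had signals of 72.2, 133.8 and 141.7 in controls and 46.0, 53.3 and 71.1 in knockouts. Every knockout value lay below every control value, and the closest pair was 71.1 and 72.2. Its log2 difference of -0.83 (SE 0.27) was the largest fall in value among the members, and with limma's adjusted p of 0.229 it did not pass. This probe set is far dimmer than those of most members. Rpl35, chosen after its values were seen, gave the highest signal of any probe set on control replicate 3, 8270, beside 5262 and 5861 on the other control arrays and 4626, 5738 and 5086 in knockouts (log2 -0.31; limma's adjusted p = 0.549). A sixth, dim probe set of Rpl35 had the opposite sign (2.35; SE 0.92), with signals of 13.3, 14.6 and 1.3 in controls and 42.2, 553.2 and 46.5 in knockouts, where 1 array stands far above the rest.

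Rpl22 is a large subunit protein that is lost in some T cell leukaemias and is needed for lymphoid development. Its brightest probe set gave 5298, 5287 and 6701 in controls and 4283, 5816 and 4902 in knockouts, with overlap between the groups and a log2 difference of -0.21 (SE 0.17; limma's adjusted p = 0.644). A dimmer probe set of Rpl22 gave 767.8, 627.8 and 647.9 in controls and 286.1, 378.1 and 158.9 in knockouts. There the groups lay wide apart, with a log2 difference of -1.34 (SE 0.31), yet the adjusted p of 0.128 in limma's test did not pass. The deposited values do not say which part of the transcript each probe set reads. Its other bright probe set was at -0.33. Rpl22l1, the paralog whose messenger RNA Rpl22 is known to repress, had signals of 3211, 3829 and 4628 in controls and 3196, 3698 and 3350 in knockouts. The lowest knockout value was just under the lowest control, the other knockout values lay inside the control range, and the log2 difference was -0.17 (SE 0.17; limma's adjusted p = 0.697).

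Small subunit proteins at the messenger RNA entry and decoding site (Rps2, Rps3, Rps9, Rps15 and Rps18) had log2 differences of -0.28 to -0.0024. Those of the exit side and platform (Rps7, Rps14, Rps26, Rps28 and Rpsa) lay at -0.34 to -0.13. After median centring 1 of 5 in each of these groups was lower. The arrays of control and knockout overlapped in all 10 genes. Rpsa, which also serves as a laminin receptor, averaged 4379 ± 397 among controls and 3940 ± 479 among knockouts (SD, n = 3 per group), a log2 difference of -0.16. Rps6, the small subunit protein phosphorylated by S6 kinase, had signals of 773.8, 736.7 and 785.9 in controls and 887.3, 722.4 and 823.3 in knockouts. Its groups overlapped, with a log2 difference of 0.08 (SE 0.13) and an interval of -0.24 to 0.39. Rpl13a, a large subunit protein that also takes part in interferon-induced translational silencing, was at -0.21 on its brightest probe set, while its other 3 bright probe sets were at -0.06, 0.055 and 0.078.

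Genes of Diamond-Blackfan anaemia and the 5q- syndrome, 7 of the 10 listed being measured, had a median log2 difference of -0.24. None of the 7 passed and all were lower as deposited; after median centring 6 of them, all but Rps14, were higher. Rps14 had signals of 4222, 4754 and 5926 in controls and 3597, 4418 and 3664 in knockouts. Knockout replicate 2 exceeded 1 control array, so the groups overlapped, and the log2 difference was -0.34 (SE 0.18; limma's adjusted p = 0.421). A second bright probe set of Rps14 gave -0.35. Rps24 had signals of 4692, 4974 and 5888 in controls and 3720, 4684 and 4538 in knockouts. Its groups were apart by the small step from 4684 to 4692, and its log2 difference was -0.26 (SE 0.16; limma's adjusted p = 0.490). All 6 probe sets of Rps24 were lower, from -0.56 to -0.26. Rps19 was at -0.24 (4214 ± 440 to 3591 ± 618), Rps10 at -0.24 (4870 ± 584 to 4119 ± 528) and Rpl11, which with Rpl5 and the 5S RNA forms the particle that can bind Mdm2, at -0.23 (4305 ± 571 to 3673 ± 528). Rps26 and Rps7 were both at -0.13. Errors in this paragraph are SDs over 3 arrays per group.

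Rps27l differed from the other bright members. It is a paralog of Rps27 and a known target of p53. Its signals were 2243, 2257 and 2636 in controls and 2256, 3335 and 3270 in knockouts, and it was the only bright member with a positive log2 difference as deposited (0.29; SE 0.19; limma's adjusted p = 0.539). Knockout replicate 1 was level with the lower controls, and the other 2 knockout arrays lay above every control. Set against the median of the bright members on the same array, Rps27l stood at log2 -0.89, -0.96 and -0.98 in controls and -0.58, -0.38 and -0.31 in knockouts. On that relative scale the groups did not overlap, with a difference of 0.52. Under quantile and loess normalization the groups stayed apart, with differences of 0.35 and 0.50. The other alternatives could not have made them overlap. At such signals the offsets of 1 and 64 barely move the difference (0.52 and 0.51). Leaving out 1 array moved the difference to between 0.46 and 0.60. All 3 of its probe sets were higher in knockouts (0.29, 0.29 and 0.36). On the same scale 30 of the 35 bright genes differed by less than 0.1, and 4 had groups apart: Rps27l, Rps2 (0.22), Rpl7a (0.13) and Rps24 (-0.040), of which Rps2 and Rpl7a were chosen after their values were seen. All but Rps27l overlapped after quantile normalization (Rps2 at 0.069, Rpl7a at 0.065 and Rps24 at -0.014). This relative scale was chosen after the values were seen and carries no test. No background share of genes with groups apart is given on it, so the 4 of 35 cannot be called many or few. Rps27l and Rps2 were also the dimmest of the 35 bright members, with mean log2 values of 11.37 and 11.48. Whether their relative rises depend on brightness was not tested.

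Paralogs are near copies of ribosomal protein genes, several of them used in particular tissues. Of 6 measured, 4 had higher values in knockouts as deposited, 5 after median centring (Rpl22l1 turning to 0.10), and 0 passed. Rpl7l1, a Rpl7-like protein, had signals of 877.7, 616.7 and 649.8 in controls and 916.5, 896.6 and 1123 in knockouts. The groups did not overlap, although the lowest knockout array was only just above control replicate 1, and the log2 difference was 0.45 (SE 0.18; limma's adjusted p = 0.317). A dimmer Rpl7l1 probe set moved further, from 275.7, 273.3 and 217.5 to 496.1, 802.3 and 1022 (1.49; SE 0.28; limma's adjusted p = 0.0913), and the last was at 0.076. Rpl7 itself was at -0.19. Rps4l had signals of 56.5, 61.5 and 76.6 in controls and 91.6, 172.9 and 80.9 in knockouts, apart but with the spread of the knockouts carried by replicate 2 (log2 0.64; SE 0.28; limma's adjusted p = 0.349), beside -0.23 for Rps4x. Rpl39l, a paralog best known from the testis, was high on 1 control array (10.9, 13.0 and 112.6) and low on 1 knockout array (109.5, 157.6 and 16.3), and its log2 difference of 0.94 had an interval of -1.18 to 3.05. Rpl3l, the paralog of striated muscle, was under 10 on every array, with means of 6.27 ± 3.12 and 1.67 ± 0.451 (SD, n = 3 each).

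**Figure D4:**
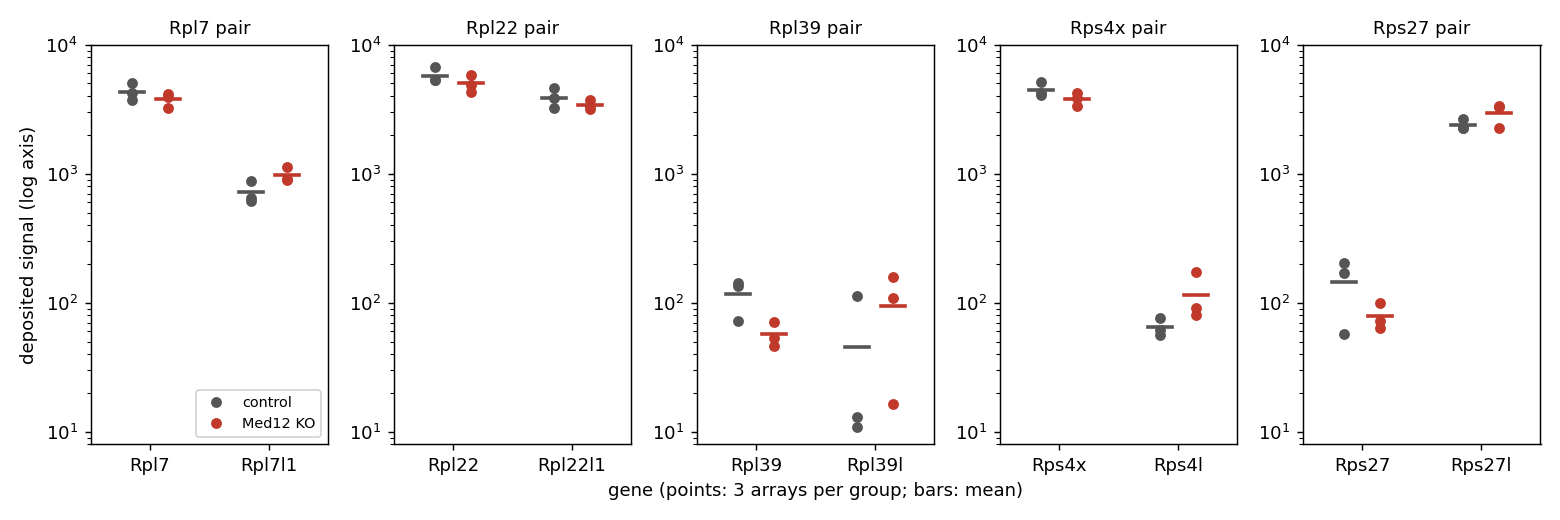
Deposited signal (vertical log axis) of 5 ribosomal protein genes and their paralogs, with 3 arrays per group as points and the group mean as a bar (grey, control; red, Med12 KO). Rpl7l1, Rps4l and Rps27l had higher means in knockouts, while Rpl7, Rpl22, Rpl22l1 and Rps4x had lower means; probe sets of different genes are not comparable in level.

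The dim members that remain to be named did not pass limma's test, and their probe sets differed widely in signal. Rps25, a small subunit protein needed for initiation at some internal entry sites, had signals of 443.9, 196.7 and 184.0 in controls and 433.6, 417.7 and 662.9 in knockouts. Control replicate 1 lay among the knockout values, and the log2 difference was 0.92 (SE 0.37; limma's adjusted p = 0.318). Rps27 had signals of 170.3, 203.6 and 57.7 in controls and 71.7, 99.7 and 63.4 in knockouts, overlapping, with a log2 difference of -0.63 (SE 0.44). The only single-symbol probe set of Rps16, chosen after its values were seen, was listed at 0.9 or less on every array. That is a reading of the probe set and not of the gene, since other probe sets for Rps16 carry several symbols.

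Probe sets that share a ribosomal protein symbol with other genes gave like values as a class. There were 110 of them, with a median log2 difference of -0.22, 100 of them lower and 0 called by limma (4 had an unadjusted p under 0.05). Over all 104 single-symbol probe sets of members 0 were called, beside 0.762% of all probe sets. Among the 24 members with several single-symbol probe sets, all probe sets had 1 sign in 17. Of the 17 members with more than 1 bright probe set, 15 were lower on every one of these, the others being Rpl13a and Rps27l. Ribosomal protein genes have many processed pseudogenes, and a probe set may pick up related transcripts; 14 of the 48 members rest on probe sets of the type that its maker marks as prone to this. With another probe set for those genes where one exists, the median was -0.18 and 0 members passed.

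Other genes of the translation machinery gave 0 calls by limma in any list as reported; the calls under other settings are given beside the genes. Fau, whose product yields a small subunit protein, was at -0.22 (4086 ± 495 to 3507 ± 450; SD, n = 3 each). On a list of 6 genes for elongation factors and related proteins, 5 were lower (median -0.21), or 2 after median centring. Eef1e1 and Eef2k were on this list although they are not elongation factors themselves. Eef1e1, a factor of the tRNA synthetase complex, had means of 346 ± 48.6 and 608 ± 54.0 with groups apart (log2 0.79; SE 0.15; limma's adjusted p = 0.0931). Eef2k, the kinase that inhibits elongation factor 2, was at -0.38 (adjusted p = 0.205), also apart. Other TOP messages had a median of -0.15, with 8 of 9 lower, or 0 of 9 after median centring; Hnrnpa1 was at -0.25 and Tpt1 at -0.21. The 16 initiation factor genes had a median of -0.04 (10 lower, or 0 after median centring), with the cap-binding protein Eif4e at 0.58 (adjusted p = 0.297) and Eif3d at 0.36. The 14 TOP regulators divided into 7 higher and 7 lower, or 10 and 4 after median centring. Among them Rptor, the mTORC1 scaffold, had signals of 318 ± 26.8 and 159 ± 39.8 with groups apart (log2 -0.95; SE 0.19; limma's adjusted p = 0.0992). Rptor passed when the dimmest 75% of probe sets were left out (limma's adjusted p = 0.0455), where 315 of 6458 genes passed. Tsc1 was at -0.46.

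On a list of chaperones and importers that escort ribosomal proteins, 13 of 13 genes were higher as deposited, with a median log2 difference of 0.47. Nacc1 was on this list although it is a transcriptional regulator. Limma gave an unadjusted p under 0.05 for 6 of the 13, beside 18.1% of all genes. In 7 the groups were apart, all higher, against 9.85% of all genes apart and higher. None passed limma's test. After loess normalization 11 of the 13 were higher (median 0.40), and after quantile normalization all were (median 0.41). After median centring all were (median 0.74), with 10 apart, beside 33.0% of all genes in that setting. Ltv1, which acts in small subunit maturation, had means of 191 ± 16.3 and 387 ± 65.6 (log2 0.95; SE 0.16; limma's adjusted p = 0.0752), and it passed after median centring (adjusted p = 0.0370) and when the dimmest 75% were left out (adjusted p = 0.0357). Grwd1, the chaperone of Rpl3, had means of 314 ± 39.0 and 828 ± 307 (log2 1.31; SE 0.27; limma's adjusted p = 0.102), and it too passed when these were left out (adjusted p = 0.0330). The 76 mitochondrial ribosomal protein genes had a median of 0.38 with 68 higher, and 0 passed. After loess normalization 65 were higher (median 0.32), and after median centring 73 were (median 0.66), of which 2 passed. Without the dimmest 75% of probe sets 2 passed as well. Over all genes, 386 of 18193 passed after median centring and 315 of 6458 without the dimmest 75%. The difference between these lists and the cytosolic ribosomal proteins was not tested.

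Scaling set the sign of the family median. It was -0.19 as deposited, 0.081 after median centring, 0.013 after quantile normalization and -0.24 after loess normalization. The median over all genes moved with it, from -0.05 to 0.22, 0.022 and 0.0050. In no setting did a member pass, and the lowest adjusted p of any member was 0.126, for Rps4l after median centring. After loess normalization the groups did not overlap in 28 members, where 21.8% of all genes did not, and 8 members had an unadjusted p under 0.05, beside 16.9% of all genes.

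**Figure D5:**
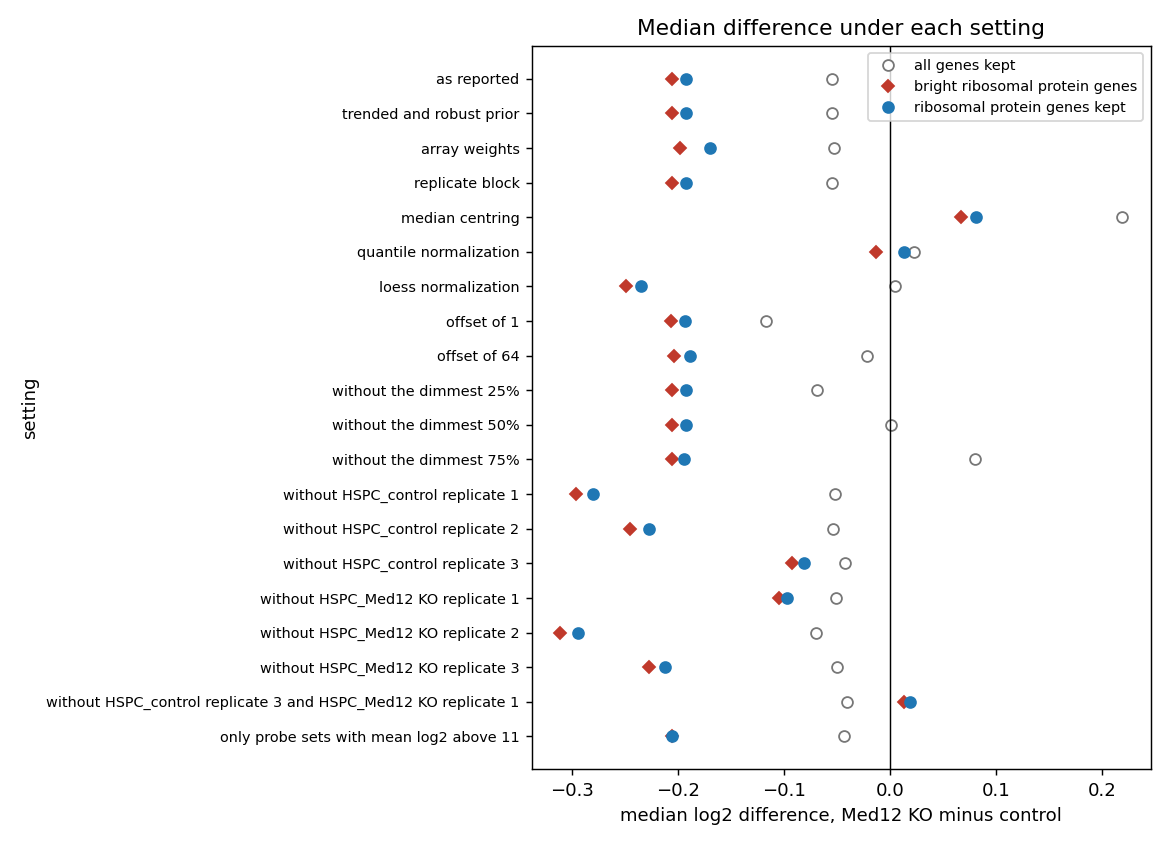
Median log2 difference (Med12 KO minus control, horizontal axis) of the ribosomal protein genes (blue), the bright ones among them (red) and all genes kept (open) under each setting. The ribosomal protein median lies at -0.19 as reported, above 0 after median centring, after quantile normalization and without control replicate 3 and knockout replicate 1 together, and below 0 in the other settings.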

How the data were processed

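Values came from 6 arrays, 3 per group; 5 ng of total RNA per sample had been amplified and biotin-labelled, per the labels' protocols. The authors deposited 1 linear signal intensity per probe set and array. The submitters' processing notes name RMA, which gives log2 values without zeros, so how these intensities were made is not given in the sources used here. Nothing says that arrays came from separate animals, so the p-values reflect sample-to-sample spread alone, which may be technical. Log2(signal + 16) of all 45037 probe sets (64 controls left out; 0 value columns unused) was fitted in R 4.3.3 by limma 3.58.1 (lmFit, eBayes; two-sided; degrees of freedom 4 residual, 1.96 prior). Benjamini-Hochberg adjustment ran over all of them at a threshold of 0.05. The steps were tested on simulated data with noise drawn separately for each value, so shifts shared by many genes of an array were not covered. The added 16 understates differences of dim genes. Means and SDs are of deposited signals. The number of arrays limits the precision. Genes were named from the platform annotation; start sequences are RefSeq's. Members and lists were chosen with earlier results of these data known. Named were the 6 largest rises and falls in value, paralog pairs, anaemia genes, stalk proteins, Rps6, Rpsa and Rpl13a, and the 2 members of lowest p, which brought 26 names; of other lists, the 2 genes of lowest p. Alternatives changed the prior, array weights, replicate block, normalization, offset, dim filter, probe set choice and the arrays kept; leaving out 2 arrays together, the limit of 11 and the class with several symbols were added after seeing the data.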

Additional observations from a re-analysis of the deposited data

How the results depend on the processing

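No member was called in any of the 19 alternative fits or with other probe sets; 46 members remained without the dimmest 25% or 50% of probe sets, 41 without the dimmest 75% and 35 above 11, and 48 otherwise. The family median (-0.19) became 0.081 after median centring, 0.013 after quantile normalization and 0.019 without control replicate 3 and knockout replicate 1 together, and ran from -0.29 to -0.081 when 1 array was left out. Members higher in knockouts (11 of 48) became 39, 25 and 29 in those 3 settings, 7 of 41 without the dimmest 75% of probe sets and 1 of 35 with only probe sets above 11; the last 2 test fewer genes. They numbered 9 to 16 with 1 array left out. Members with groups apart (7) became 28 after loess normalization (21.8% of all genes), 15 without the same 2 arrays (45.6%), 4 without the dimmest 75% (30.9%), 3 above 11 (16.3%), and 8 to 23 with 1 array left out (31.1% to 35.2%), where smaller groups overlap less. The cause of the other changes was not tested. After median centring, 13 named members turned positive: Rpl11 0.044, Rpl13a 0.067, Rpl22 0.068, Rpl22l1 0.10, Rpl7 0.079, Rplp0 0.21, Rps10 0.032, Rps19 0.035, Rps24 0.0089, Rps26 0.15, Rps4x 0.041, Rps7 0.15 and Rpsa 0.12. After quantile normalization Rpl13a (0.015), Rpl22 (0.046), Rplp0 (0.093), Rps7 (0.042) and Rpsa (0.039) did. Without control replicate 3 and knockout replicate 1 together Rpl22 (0.013), Rpl22l1 (0.0055), Rpl7 (0.028), Rplp0 (0.17), Rps26 (0.076), Rps7 (0.088) and Rpsa (0.021) did. With 1 array left out, Rpl12 ran from -0.078 to 0.54, Rplp0 from -0.18 to 0.075, Rps26 from -0.22 to 0.0081, Rpl22 from -0.32 to -0.093, Rpl22l1 from -0.30 to -0.041 and Rps7 from -0.21 to 0.0049. Arrays of 1 replicate number did not deviate together (correlations of 0.017, 0.028 and -0.011), so no pairing by number was seen. So few arrays cannot exclude one. With the replicate block 0 members and 0 genes passed limma's test, 1 member had an unadjusted p under 0.05, and the family median was -0.19. Over all genes, calls fell from 180 to 3 or fewer with 1 array left out.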
